A study of Drosophila melanogaster with 29 samples.

Results

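The active zone scaffold genes brp, Rim, Rbp, unc-13, Fife, Syd-1 and Liprin-alpha were followed through RNA sequencing of sorted neurons from the central complex of the adult Drosophila brain. The members were chosen by gene name and not by a measured value, though with earlier results of these data known. They are 7 of the 17612 genes in the deposited tables. All 7 were above 0 in every group and passed the filter on low values in the bulk, low-cell and plate tests. The active zone is the patch of presynaptic membrane where synaptic vesicles fuse. Bruchpilot (brp), a relative of the ELKS/CAST proteins, builds the T-bar and clusters calcium channels beneath it. Rim and its binding partner RIM-BP (Rbp) tie calcium channels to vesicles, unc-13 primes vesicles for fusion, and Fife, a relative of Rim and Piccolo, helps to organise docked vesicles. Syd-1 and Liprin-alpha seed new sites early in assembly.

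All flies were females aged 3 to 5 days. The sorted neurons carried the nuclear reporter nlstdTomato under a split driver line and were collected by fluorescence-activated sorting. Bulk libraries came from 4 sorts of D7 neurons (lines SS02238 and SS30295, 2 each), 4 of EPG neurons (lines SS00096 and SS00131, 2 each), 2 of PEG neurons (line SS02191) and 2 of PEN2 neurons (line SS02232), with 754 to 1270 cells a sort. Their control was 2 libraries of 5 ng whole brain RNA (WB), optic lobes included. Low-cell libraries came from 14 pools of 35 PEN2 neurons (line SS02232) and 7 pools of 40 R4d neurons (line SS00238), and their control was 8 libraries of 50 pg central brain RNA (CB) without the optic lobes. Single cells were sorted into 6 plates of PEN1 neurons (line SS62862) and 5 plates of PEN2 neurons (line SS02232). The brain RNA controls carried no driver or reporter by their labels. PEG, PEN1, PEN2 and R4d were each taken from a single line, so the cell type and the line cannot be told apart there. Separate flies or dissections are not named for the low-cell replicates, so a p-value there sets a difference against library spread that may be purely technical. The 2 WB libraries lay close together, with an SD of 0.208% of the mean for brp and 0.745% for Rim. In the sorted bulk types it was 2.38% to 37.55% for brp and 11.98% to 36.0% for Rim. All bulk groups share 1 estimate of the spread, so that estimate may be partly technical.

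Low-cell totals were 399694 to 500622 counts for PEN2, 1001162 to 1154010 for R4d and 340527 to 415414 for CB. The plates held 2444192 to 5554080 counts for PEN1 and 2656407 to 5783837 for PEN2, and the depth of the bulk libraries is unknown because their table gives no counts. Transmitter genes mostly separated the types, with exceptions in Gad1 and VGAT. VGlut, the glutamate transporter, averaged 366 FPKM in D7 and 16.9 FPKM or less in the other sorted bulk types. ChAT, which makes acetylcholine, averaged 2227 CPM in low-cell PEN2 and 15.3 CPM in R4d. Gad1, which makes GABA, averaged 8.74 CPM in low-cell PEN2 and 632 CPM in R4d. In bulk PEN2, however, Gad1 read 2.83 and 210.8 FPKM where ChAT averaged 16.8 FPKM, and on the PEN2 plates Gad1 averaged 223 CPM. VGAT, the other GABAergic marker, overlapped, with up to 100.7 CPM in low-cell PEN2 and 96.2 to 196.5 CPM in R4d. In CB it had 158.5 to 236.0 CPM. The 12 glial markers summed to 46.0 to 397 CPM in low-cell PEN2 and 26.8 to 85.3 CPM in R4d, against 7532 to 8470 CPM in CB. Their bulk sums were 3.38 to 16.3 FPKM for D7, 89.0 to 156 FPKM for EPG, 246 and 3856 FPKM for PEG and 22.5 and 34.6 FPKM for PEN2, against 1053 and 1104 FPKM for WB. PEG replicate 1 stood apart, with the 3856 FPKM of glial markers and 34.0% of its FPKM from the mitochondrial genome, so the calls that involve PEG are also given without it.

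The genes lie on several chromosomes. In the Ensembl annotation of BDGP6, matched by gene identifier, brp (FBgn0259246) spans 2R:9503765-9541565 on the + strand, Rim (FBgn0053547) spans 3R:17872748-17916578 on the - strand and Rbp (FBgn0262483) spans 3R:15374635-15402543 on the + strand. There unc-13 (FBgn0025726) spans 4:867824-912331 on the - strand, Fife (FBgn0264606) spans 3L:2655415-2711690 on the - strand and Liprin-alpha (FBgn0046704) spans 2L:6723903-6732766 on the + strand. Syd-1 (FBgn0039883), which the deposited tables call RhoGAP100F, spans 3R:31812609-31846570 on the + strand. The build the authors used is not given in the sources used here. Exons of unc-13 overlap those of 3 antisense RNAs, by 3528, 1463 and 705 bases, those of Rbp overlap an antisense gene by 327 bases, and those of Fife overlap 2 antisense genes by 41 bases each. Whether the counting used strand is not stated, so the values of these 3 genes are uncertain to that extent.

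The clearest contrast was in the low-cell libraries. PEN2 neurons were rich in Rim and R4d neurons in brp: Rim was 9.46-fold higher in PEN2 than in R4d, while brp was 2.66-fold lower in PEN2 than in R4d. Both genes separated all 3 groups with no overlap between libraries. How many of all genes tested separate groups in this way was not counted, for this or any later statement on overlap. Fife, unc-13 and Syd-1 passed in some comparisons, with overlapping ranges, and Rbp and Liprin-alpha did not pass the test in any low-cell comparison.

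**Figure D1:**
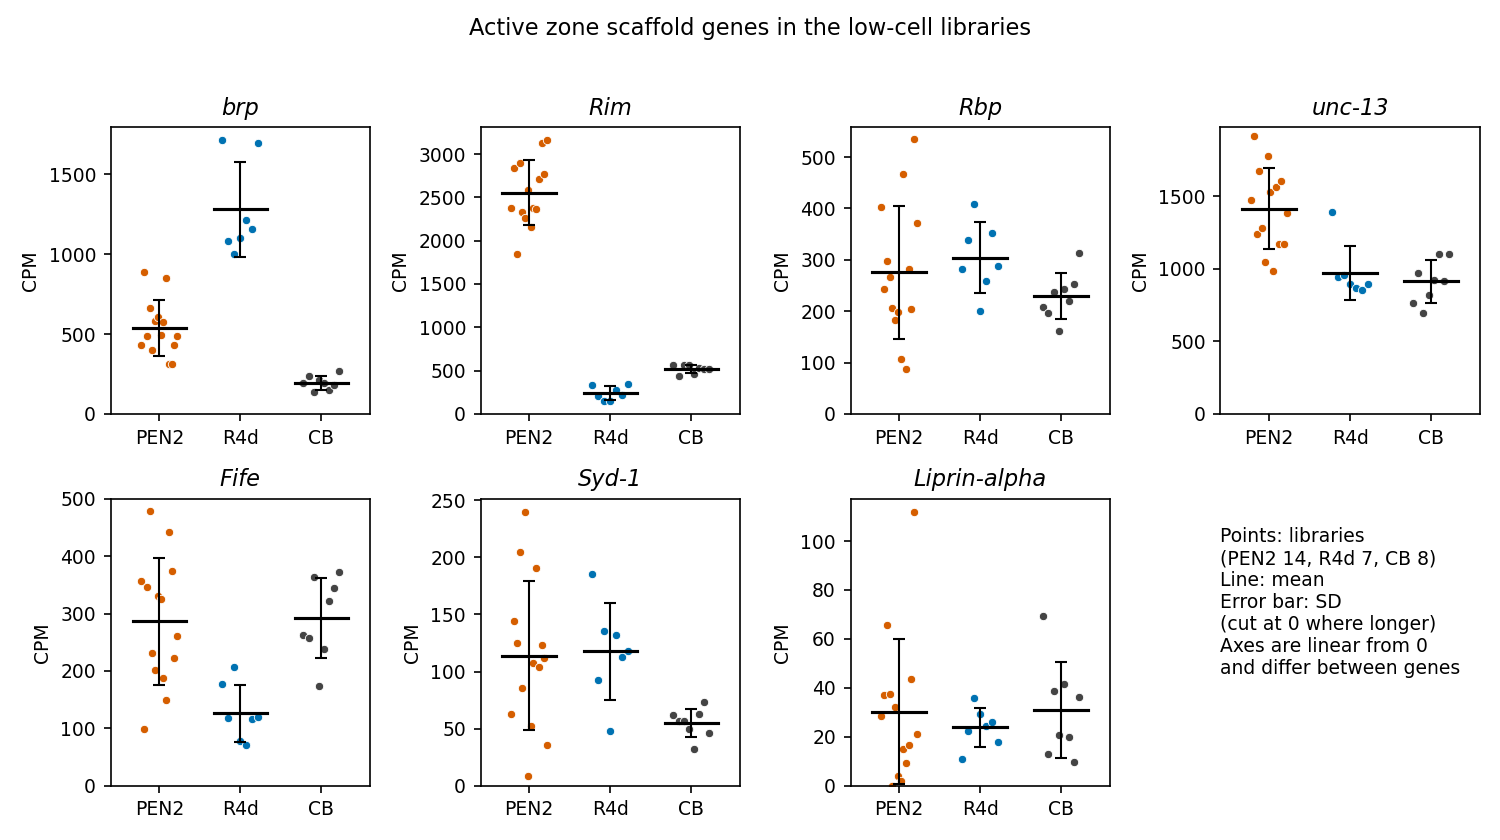
Counts scaled to the library total (CPM) of the 7 scaffold genes in each low-cell library of PEN2 (14), R4d (7) and central brain RNA (CB, 8); the line is the mean and the bar the SD, and each gene has its own axis. PEN2 is above the other groups in Rim, with all libraries at 1842 CPM or more, and R4d is above them in brp, with all libraries at 1001 CPM or more.

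For brp, the lowest, median and highest values were 315, 492 and 891 CPM in PEN2 and 1001, 1160 and 1716 CPM in R4d, against 137, 193 and 270 CPM in CB. Every R4d library was above every PEN2 library, and every PEN2 library was above every CB library. The log2 change of brp over CB was 2.73 ± 0.22 (SE) in R4d (edgeR adjusted p = 1.69e-12) and 1.32 ± 0.19 in PEN2 (edgeR adjusted p = 9.27e-07). Between the sorted types it was -1.41 ± 0.18 for PEN2 over R4d (edgeR adjusted p = 5.22e-08). Within R4d, 5 libraries lay between 1001 and 1214 CPM and the remaining ones at 1695 and 1716 CPM.

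Rim, the protein that couples vesicles to calcium channels, went the other way in R4d. It had 1842, 2477 and 3160 CPM as the lowest, median and highest values in PEN2 and 151, 220.1 and 343 CPM in R4d, against 440.2, 525.7 and 570.5 CPM in CB. The groups again did not overlap, with PEN2 on top, CB between and R4d at the bottom. The log2 change of Rim over CB was 2.15 ± 0.14 in PEN2 (edgeR adjusted p = 1.87e-14), a 4.45-fold difference. It was -1.09 ± 0.16 for R4d over CB (edgeR adjusted p = 7.24e-07). PEN2 over R4d gave 3.24 ± 0.16 (edgeR adjusted p = 4.99e-18).

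The PEN2 pools came from 2 sample entries, and Rim and brp passed with either entry alone. With only entry 2, PEN2 over CB gave log2 changes of 2.24 for Rim and 1.18 for brp. With only entry 1, it gave 2.10 for Rim and 1.43 for brp.

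Fife and unc-13 passed the test between PEN2 and R4d, with overlapping ranges. Fife had 98.5, 294 and 479.8 CPM as the lowest, median and highest values in PEN2 and 70.2, 118 and 207 CPM in R4d, against 173, 292 and 373 CPM in CB. The R4d median was below every CB library, but the ranges of all 3 groups overlapped. The log2 change was -1.19 ± 0.29 for R4d over CB (edgeR adjusted p = 0.00122) and 1.03 ± 0.26 for PEN2 over R4d (edgeR adjusted p = 0.00277). PEN2 over CB gave -0.16 ± 0.24, which did not pass (edgeR adjusted p = 0.758).

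The priming factor unc-13 had 983, 1430 and 1915 CPM in PEN2 and 853, 895 and 1390 CPM in R4d, against 697, 921 and 1103 CPM in CB. Its ranges overlapped in all 3 pairs. The log2 change was 0.50 ± 0.13 for PEN2 over CB (edgeR adjusted p = 0.00405) and 0.38 ± 0.13 for PEN2 over R4d (edgeR adjusted p = 0.0321). With PEN2 entry 2 alone neither passed, at 0.37 over CB (edgeR adjusted p = 0.0708) and 0.26 over R4d (edgeR adjusted p = 0.204). The call over R4d held in 20 of the 29 fits that left out 1 library. R4d over CB gave 0.11 ± 0.15 (edgeR adjusted p = 0.66).

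Of the assembly factors, Syd-1 had 8.20, 110 and 239.7 CPM in PEN2 and 47.7, 118 and 186 CPM in R4d, against 31.7, 56.7 and 73.0 CPM in CB. The medians of both sorted types were above every CB library, while single libraries of each fell inside or below the CB range. The log2 change was 1.13 ± 0.43 for R4d over CB, just past the threshold (edgeR adjusted p = 0.0491), and this call was lost in 23 of the 29 fits that left out 1 library. PEN2 over CB gave 0.92 ± 0.39 (edgeR adjusted p = 0.101). The lowest PEN2 library rested on 4 counts, and without that library the PEN2 value passed, at 1.04 (edgeR adjusted p = 0.0249).

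Liprin-alpha was sparse, with a median of 11.5 counts a library in both PEN2 and CB and 26 in R4d. Its medians were 24.9 CPM in PEN2 and 24.3 CPM in R4d, against 28.3 CPM in CB, and 1 PEN2 library had no count. Rbp had medians of 255 CPM in PEN2 and 288 CPM in R4d, against 229 CPM in CB. Neither gene passed in any of the 3 comparisons, with log2 changes between -0.37 and 0.43.

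Of the 7 genes, PEN2 over CB thus called 3, all higher, where 18.4% of the 5553 genes tested were called and 7.06% were called higher. R4d over CB called 2 higher and 2 lower, where 27.4% of all genes were called, 10.9% higher and 16.5% lower. PEN2 over R4d called 3 higher and 1 lower, where 23.2% of all genes were called, 11.3% higher and 11.9% lower. The median log2 change of the 7 was 0.50 for PEN2 over CB, 0.11 for R4d over CB and 0.19 for PEN2 over R4d, where the medians over all genes were -0.14, -0.09 and -0.05. The comparisons with CB share their control libraries. Of the 8 pan-neuronal markers, 6 were called higher and 1 lower in PEN2 over CB, and 5 higher and 3 lower in R4d over CB, and their sums were 18120 to 24730 CPM in PEN2 and 13380 to 16050 CPM in R4d, against 11840 to 13360 CPM in CB. Of the 11 glial markers tested, 10 were lower in PEN2 and all 11 in R4d, by the sums given above. The part of cell makeup in the differences from CB was not tested. PEN2 over R4d sets 2 sorted types side by side. In the authors' deposited table, with the sign turned to type over CB, R4d had log2 changes of 2.67 for brp, -1.15 for Rim, -1.24 for Fife and 1.07 for Syd-1, and PEN2 had 2.21 for Rim, 1.37 for brp and 0.55 for unc-13, all with an FDR under 0.05.

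The composition of the scaffold transcripts was also taken within each library, as the share of each gene in the sum of the 7. A share does not depend on how libraries are scaled to each other. It does depend on gene length in the count tables, so shares of a gene are compared between groups of a protocol and not between genes. A change in 1 gene moves the shares of all the others.

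**Figure D2:**
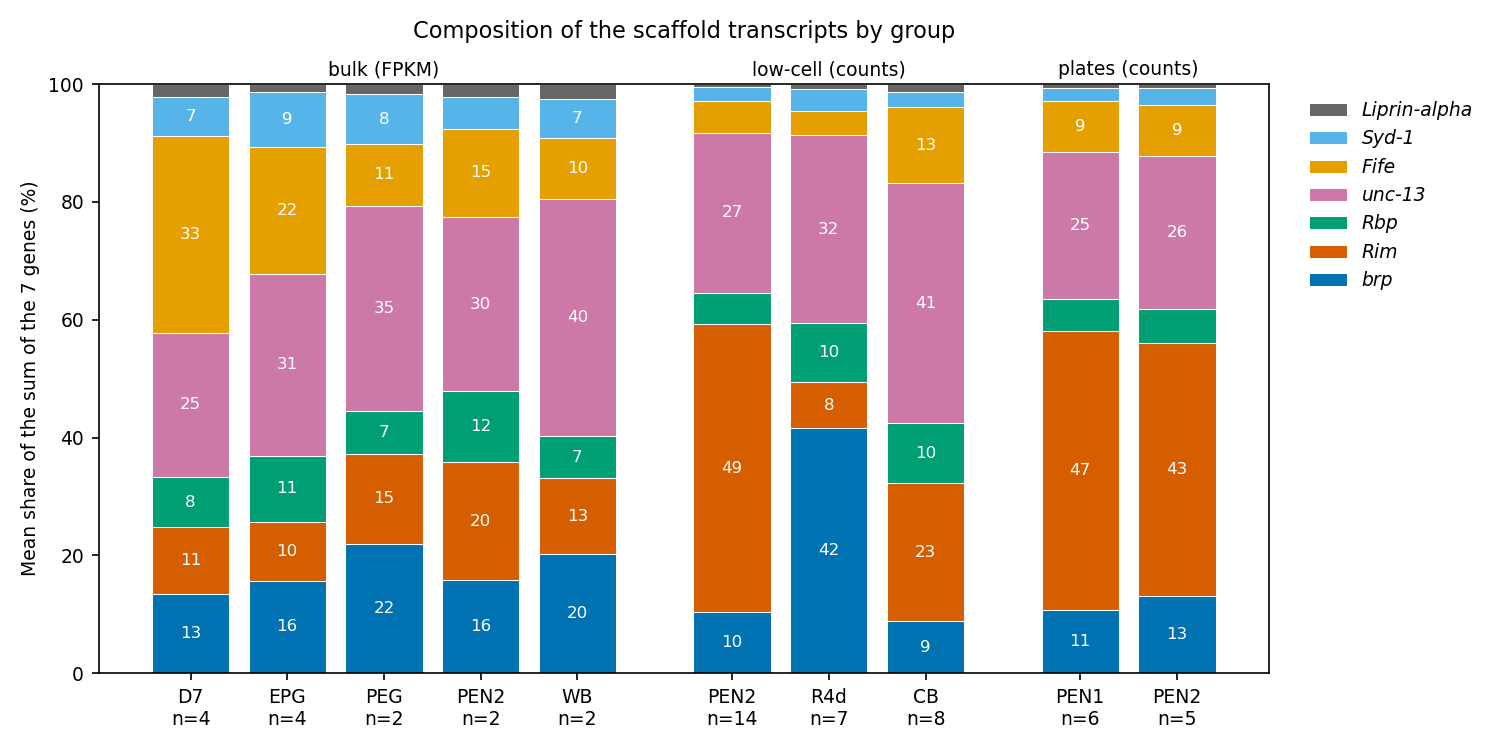
Mean share of each gene in the sum of the 7 scaffold genes, in percent, for the bulk (FPKM), low-cell and plate (counts) groups, with the number of libraries or plates as n. Fife takes 33.3% in D7 against 10.4% in WB, and low-cell PEN2 is led by Rim at 48.9% where R4d is led by brp at 41.6%.

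In the low-cell libraries Rim took 48.9% ± 3.91 (SD, n = 14) of the scaffold counts in PEN2 and 7.74% ± 1.71 (n = 7) in R4d, against 23.5% ± 3.33 (n = 8) in CB. These ranges did not overlap. The share of brp was 10.3% ± 3.02 in PEN2 and 41.6% ± 4.44 in R4d, against 8.79% ± 1.82 in CB, with R4d apart and PEN2 and CB overlapping. So brp rose in PEN2 over CB in CPM while its part of the scaffold sum overlapped that of CB. The share of unc-13 was 27.1% ± 3.86 in PEN2, below every CB library, where it averaged 40.7% ± 4.29, although its CPM was higher. Fife took 4.10% ± 1.50 in R4d, below every CB library (12.98% ± 2.62). The ratio of Rim to brp counts had a median of 4.37 in PEN2 (range 2.78 to 9.91) and 0.191 in R4d (0.141 to 0.227), against 2.76 in CB (1.86 to 4.17). The sum of the 7 was 4407 to 6224 CPM in PEN2 and 2503 to 4092 CPM in R4d, against 2009 to 2660 CPM in CB.

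The bulk libraries separated the types mainly by Fife and Rim. Fife was highest in D7, then EPG, and Rim was highest in PEN2. Deposited FPKM, which are per length, also order the genes within a group: Fife led the 7 in D7, at 179 ± 44.7 FPKM (SD, n = 4), and unc-13 led in EPG, PEG, PEN2 and WB. Liprin-alpha was lowest of the 7 in all 5 groups, at 9.13 to 24.9 FPKM on average.

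**Figure D3:**
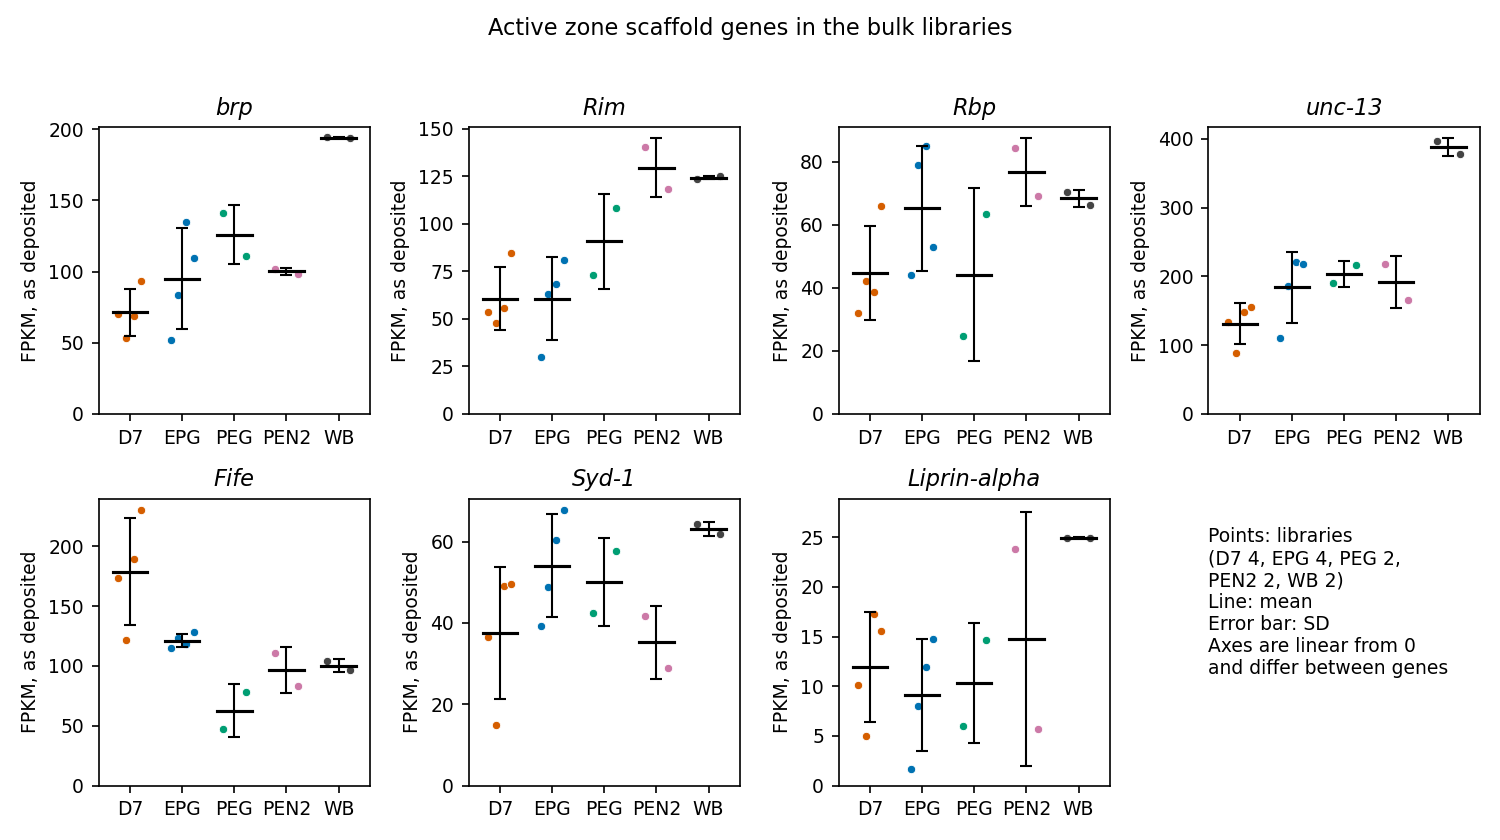
FPKM, as deposited, of the 7 scaffold genes in each bulk library of D7 (4), EPG (4), PEG (2), PEN2 (2) and whole brain RNA (WB, 2); the line is the mean and the bar the SD, and each gene has its own axis. Fife is above WB in all D7 and EPG libraries, with D7 at 122 to 230.2 FPKM, and brp and unc-13 are below WB in all sorted libraries.

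Fife read 173 and 122 FPKM in D7 from line SS02238 and 189.6 and 230.2 FPKM in D7 from line SS30295. In EPG it read 115.0 and 123 FPKM from line SS00096 and 119 and 128 FPKM from line SS00131. In PEG it read 47.0 and 78.5 FPKM and in PEN2 110.5 and 83.4 FPKM, against 100.2 ± 5.46 FPKM in WB (SD, n = 2). Every D7 library was above every PEG, PEN2 and WB library, and EPG overlapped only with D7. In bulk RNA of a sort, fewer cells of a type and less RNA per cell cannot be told apart. On TMM-scaled values the log2 change was 1.55 ± 0.22 for D7 over PEG (limma adjusted p = 0.00208), 0.71 ± 0.22 for D7 over PEN2 (limma adjusted p = 0.105) and 0.57 ± 0.18 for D7 over EPG (limma adjusted p = 0.135). EPG over PEG gave 0.97 ± 0.22 (limma adjusted p = 0.0384), a call of Fife that held in 3 of the 14 fits that left out 1 library and in 4 of 9 other alternatives. Without PEG replicate 1, D7 over PEG remained past the threshold, while EPG over PEG was 0.80 (limma adjusted p = 0.173).

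The share of Fife was 34.0%, 32.7%, 33.4% and 33.2% of the 7 in the D7 libraries, with both lines alike, and 29.3%, 20.8%, 16.9% and 19.1% in the EPG libraries. It was 8.96% and 12.1% in PEG and 15.3% and 14.6% in PEN2, against 10.63% and 10.17% in WB. D7 was above all other libraries and EPG was above all PEG, PEN2 and WB libraries.

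Rim read 53.7 and 47.9 FPKM in D7 from line SS02238 and 55.9 and 84.9 FPKM in D7 from line SS30295. In EPG it read 29.8 and 63.1 FPKM from line SS00096 and 68.5 and 81.0 FPKM from line SS00131. In PEG it read 73.3 and 108.5 FPKM and in PEN2 140.6 and 119 FPKM, against 124 and 125 FPKM in WB. PEN2 was above every D7, EPG and PEG library and overlapped WB. The log2 change of Rim was -1.26 ± 0.27 for D7 over PEN2 (limma adjusted p = 0.0192) and -1.37 ± 0.27 for EPG over PEN2 (limma adjusted p = 0.0176). PEG over PEN2 gave -0.72 ± 0.31 and did not pass (limma adjusted p = 0.375). The 8 pan-neuronal markers had median changes of -0.90 for D7, -0.56 for EPG and -0.73 for PEG over PEN2. D7 over PEN2 called 1 of them higher and 3 lower (1.47% and 2.82% of all genes). EPG over PEN2 called 1 higher and 1 lower (0.926% and 1.65%), and PEG over PEN2 called 0 (0.863% and 0.726%). Their part in the Rim changes was not tested. The Rim calls rest on 2 PEN2 libraries, and each held in 5 of 9 alternatives other than leaving out 1 library. Both were lost without scaling, rescaled without abundant genes, with library weights and with only the 2 groups compared. They passed without PEN2 replicate 1, which held 210.8 FPKM of Gad1 where replicate 2 held 2.83 FPKM. Without replicate 2 they were lost, at limma adjusted p = 0.0919 for D7 and 0.07 for EPG over PEN2, and without either WB library, which the fit uses only for the spread and the scaling, the adjusted p was 0.0608 to 0.0629.

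The share of Rim was 19.5% and 20.8% in bulk PEN2, above all other bulk libraries, which held 7.60% to 16.7%. The ratio of Rim to brp FPKM was 1.38 and 1.20 in PEN2, 0.767 to 0.909 in D7, 0.507 to 0.752 in EPG and 0.520 and 0.976 in PEG, against 0.637 and 0.645 in WB. PEN2 was thus the only bulk type in which every library had more Rim than brp per length. The low-cell ratios given above are of counts, not per length, so the protocols are not put on a common scale.

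Of the other genes, none passed the limma test in any of the 6 comparisons between sorted bulk types. The T-bar gene brp averaged 71.4 ± 16.6 FPKM for D7, 95.03 ± 35.7 for EPG (SD, n = 4 each), 126 ± 21.0 for PEG and 100.4 ± 2.39 for PEN2 (n = 2 each), against 194 ± 0.403 in WB (n = 2). In EPG brp split by line, with 51.7 and 83.8 FPKM from SS00096 and 135 and 109.5 FPKM from SS00131. In the same sense unc-13 averaged 149 FPKM in SS00096 and 219 FPKM in SS00131, and Liprin-alpha 4.89 and 13.4 FPKM. The lines of D7 gave lower means in SS02238 than in SS30295, with 61.7 and 81.1 FPKM for brp, 111 and 152 FPKM for unc-13, and 7.54 and 16.4 FPKM for Liprin-alpha. These are unscaled values, and on them all 7 genes had the lower mean in SS00096 within EPG and in SS02238 within D7. The lowest TMM scale factors were those of SS00096 replicate 1 in EPG, at 0.662, and SS02238 replicate 2 in D7, at 0.661. The other library of SS00096 had 1.02, beside 0.958 and 0.923 in SS00131. The other library of SS02238 had 0.862, beside 0.887 and 1.02 in SS30295. No test between lines was made.

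The priming factor unc-13 averaged 131 ± 30.0 FPKM for D7, 184 ± 51.1 for EPG, 204 ± 18.5 for PEG and 192 ± 37.6 for PEN2, against 387.8 ± 13.5 in WB. Rbp averaged 44.8 ± 14.8 FPKM for D7, 65.3 ± 19.9 for EPG, 44.2 ± 27.4 for PEG and 76.8 ± 10.7 for PEN2, against 68.4 ± 2.77 in WB. Syd-1 averaged 37.5 ± 16.2 FPKM for D7, 54.0 ± 12.6 for EPG, 50.0 ± 10.7 for PEG and 35.3 ± 8.97 for PEN2, against 63.1 ± 1.63 in WB. Among these genes the smallest adjusted p was that of unc-13, at -0.71 ± 0.21 for D7 over PEN2 (limma adjusted p = 0.0891), and the largest change that of Rbp, at -1.11 ± 0.38 for PEG over PEN2 (limma adjusted p = 0.231). The calls among the 7 were thus Fife for D7 over PEG (3.34% of the 9500 genes tested were called, 0.947% higher) and EPG over PEG (2.27% called, 0.768% higher), and Rim for D7 over PEN2 (4.29% called, 2.82% lower) and EPG over PEN2 (2.58% called, 1.65% lower). There were 0 for D7 over EPG (3.48%) and for PEG over PEN2 (1.59%), where limma's unadjusted p was under 0.05 for Fife and unc-13 in D7 over EPG and for Fife, Rbp and Rim in PEG over PEN2.

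Against whole brain RNA the bulk changes depended on the scaling. Abundant genes (rRNA, mitochondrial genome and ribosomal protein genes) took 72.1% to 84.1% of the FPKM in sorted libraries, against 56.24% and 55.95% in WB, and the TMM factors were 0.661 to 1.02 in sorted libraries against 1.85 and 1.86 in WB. With TMM, the median change of all genes was -0.20 for D7, -0.23 for EPG, -0.22 for PEG and -0.43 for PEN2. Without scaling it was -0.92, -0.92, -0.90 and -1.13. The direction of a scaffold gene against WB is therefore relative to that shift.

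With TMM scaling, Fife passed over WB in D7, at a log2 change of 1.91 ± 0.22 (limma adjusted p = 6.38e-05), in EPG, at 1.34 ± 0.22 (limma adjusted p = 0.00115), and in PEN2, at 1.20 ± 0.25 (limma adjusted p = 0.00896). Scaled means were 206 FPKM in D7, 139 FPKM in EPG and 126 FPKM in PEN2, against 54.0 FPKM in WB. In PEN2, Rim gave 1.32 ± 0.31 (limma adjusted p = 0.0183) and Rbp 1.42 ± 0.38 (limma adjusted p = 0.0399). As deposited, without scaling, the Fife changes were 0.79, 0.27 and -0.06 and none of these calls remained. Unscaled, brp and unc-13 instead passed as lower in D7, at -1.46 (limma adjusted p = 0.0126) and -1.59 (limma adjusted p = 0.00429), and unc-13 as lower in EPG, at -1.12 (limma adjusted p = 0.0348). Without either of the WB libraries, no member was called over WB in D7, EPG or PEN2.

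**Figure D4:**
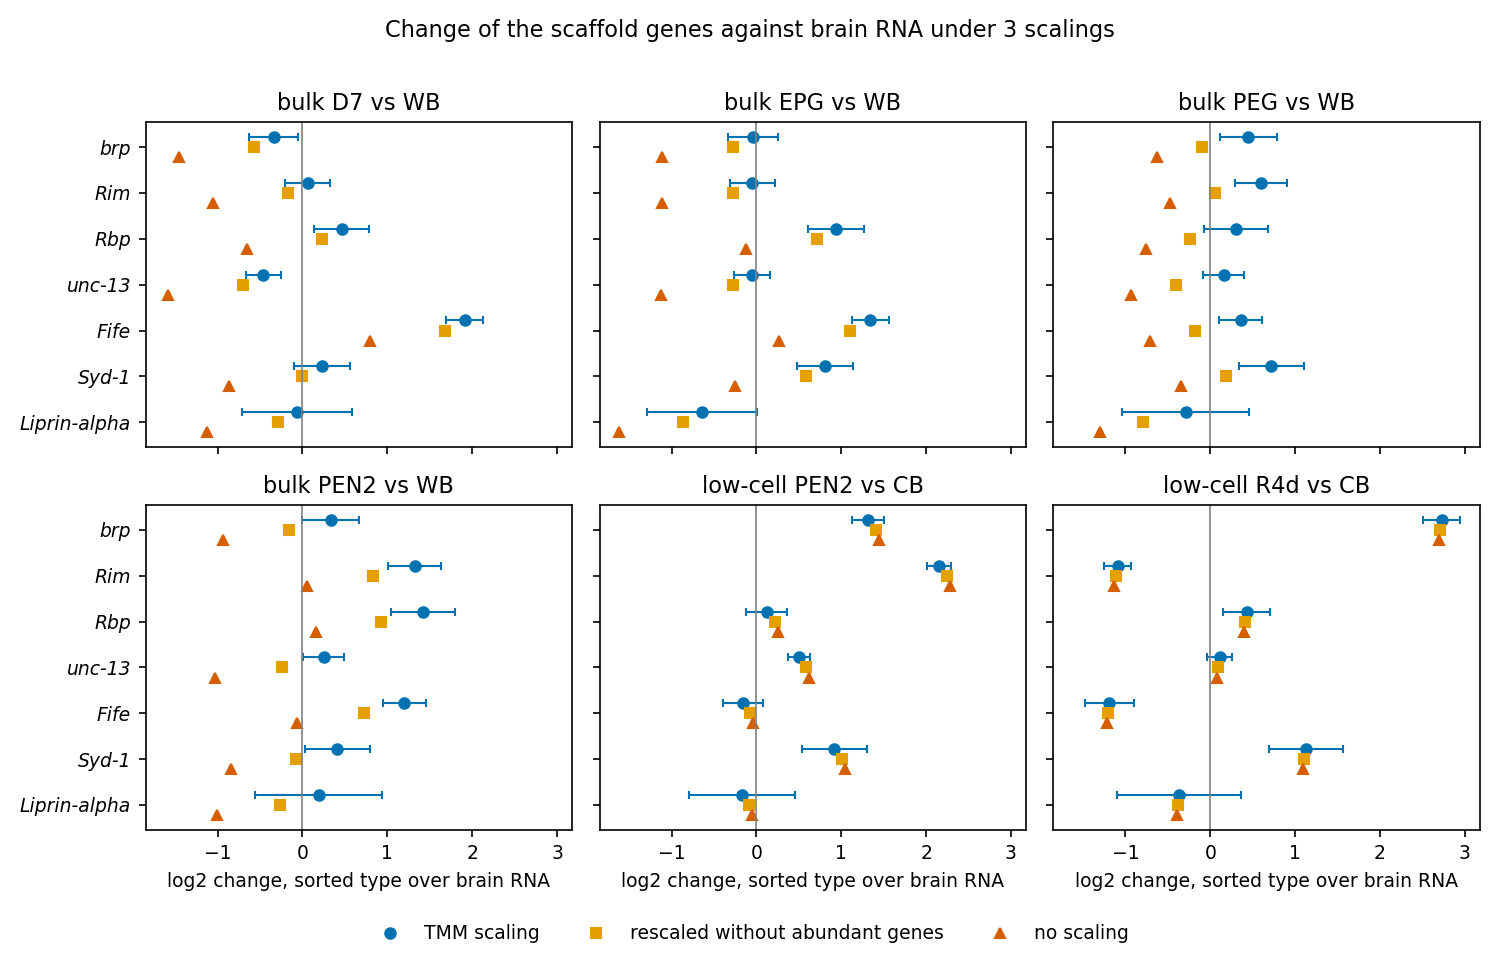
Log2 change of each scaffold gene in a sorted type over brain RNA with TMM scaling (circles, bars are SE), after rescaling without abundant genes (squares) and without scaling (triangles). The bulk panels shift to the left without scaling, where only Fife in D7 and EPG and Rim and Rbp in PEN2 stay above 0, while the low-cell panels hold their directions.

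The members called over WB with TMM were 1 for D7 (10.3% of the 9500 genes were called, 1.76% higher), 1 for EPG (9.55%, and 1.53% higher), 0 for PEG (6.16%) and 3 for PEN2 (7.71%, and 1.45% higher), all higher. For PEG no member reached an unadjusted limma p of 0.05. The median change of the 7 was 0.06 for D7, -0.04 for EPG, 0.36 for PEG and 0.41 for PEN2. That of the 8 pan-neuronal markers was -0.57 for D7, 0.10 for EPG, 0.41 for PEG and 1.145 for PEN2. Of these markers 4 were called higher and 1 lower in PEN2 (1.45% and 6.25% of all genes). The numbers were 1 and 2 in D7 (1.76% and 8.53%), 1 and 1 in EPG (1.53% and 8.02%), and 0 and 1 in PEG (1.01% and 5.15%). Their part in the member calls was not tested. Shares need no scaling: brp and unc-13 took less of the scaffold sum in every D7, EPG and PEN2 library than in WB, with brp at 12.1% to 14.3% in D7, 13.2% to 19.3% in EPG and 14.1% and 17.3% in PEN2, against 19.9% and 20.5% in WB. For unc-13 they were 22.3% to 26.2% in D7, 28.3% to 32.4% in EPG and 29.0% and 30.3% in PEN2, against 40.0% and 40.6% in WB. In the authors' deposited table, with the sign turned to type over WB, brp at -1.54 (FDR 0.0313) and unc-13 at -1.67 (FDR 0.0206) in D7 were the members under an FDR of 0.05 in the bulk comparisons, and Fife in D7 was 0.73 (FDR 0.283).

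The plates compared PEN1 with PEN2, neurons of related shape in the same circuit. A plate was the sample, and counts were summed over its wells with at least 500 genes, 380 of 552 wells for PEN1 and 362 of 460 for PEN2. Rim was the only member whose plate values did not overlap between the types, with PEN1 higher. How many of all genes do the same was not counted. The edgeR test of Rim did not pass.

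**Figure D5:**
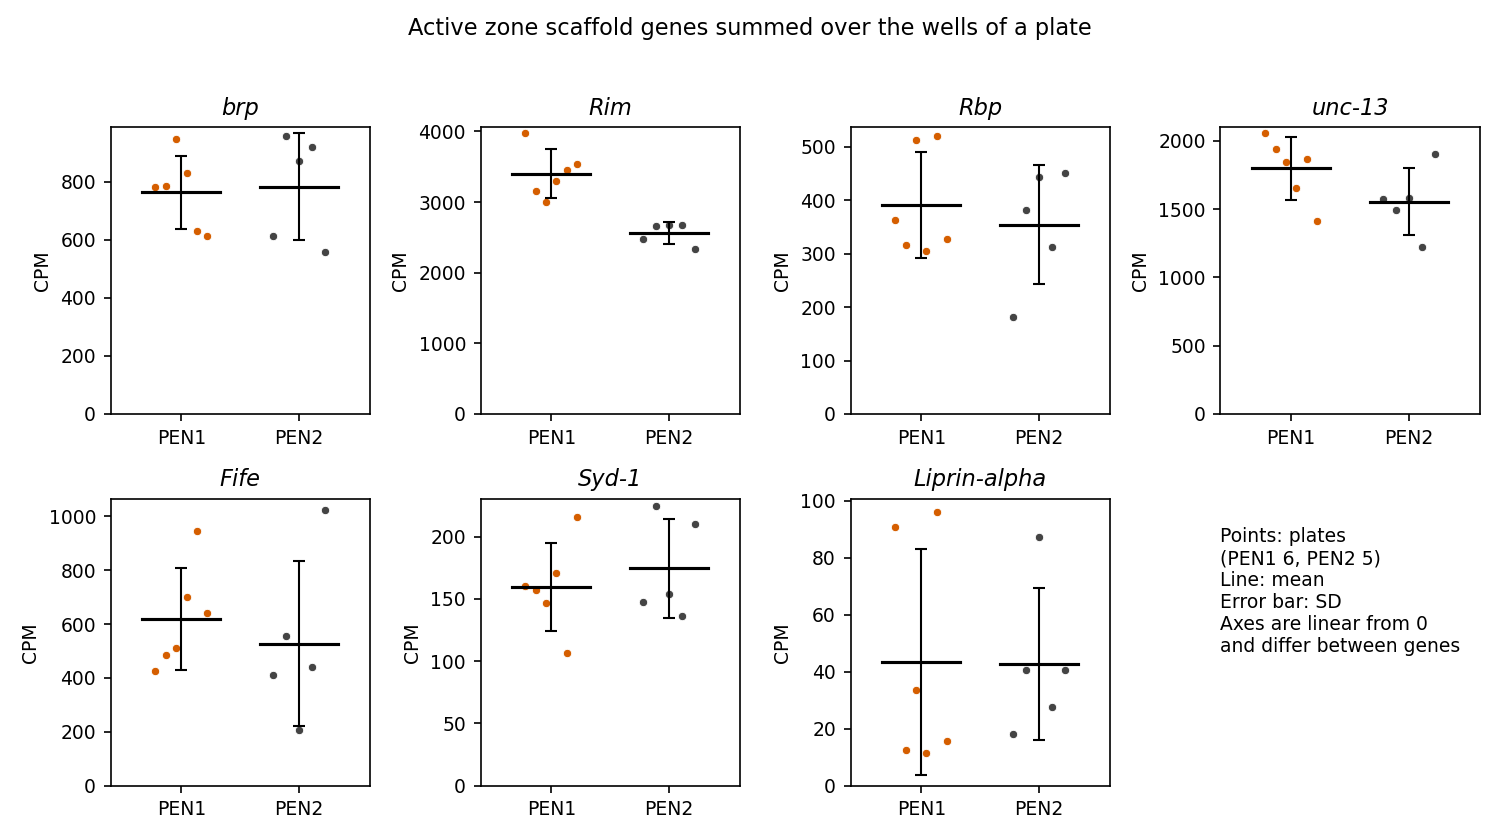
Counts scaled to the plate total (CPM) of the 7 scaffold genes on each plate of PEN1 (6) and PEN2 (5), summed over wells with at least 500 genes; the line is the mean and the bar the SD, and each gene has its own axis. Rim is at 3006 to 3978 CPM on PEN1 plates, above the 2333 to 2679 CPM of PEN2 plates, and the other genes overlap.

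Rim had 3006, 3374 and 3978 CPM as the lowest, median and highest values on the PEN1 plates, against 2481, 2663, 2675, 2679 and 2333 CPM on the PEN2 plates. All 6 PEN1 plates were above all 5 PEN2 plates. The log2 change was 0.42 ± 0.13 (edgeR unadjusted p = 0.00545, adjusted p = 0.405). DESeq2 gave 0.42 with an adjusted p of 0.0337, where it called 56 of 2367 genes. Under other settings the Rim change ranged from 0.26, in wells with at least 1000 genes, to 0.43. Without each plate in turn it ranged from 0.37 to 0.45, and edgeR called Rim in none of these. No member was called by edgeR, where 0.256% of the 6249 genes tested were, and Rim alone had an unadjusted p under 0.05. The median change of the 7 was 0.15, against 0.002 over all genes.

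The remaining members differed by at most 0.22 (log2) between PEN1 and PEN2 plates. Fife ranged from 425 to 944 CPM on PEN1 plates and from 207 to 1024 CPM on PEN2 plates. The T-bar gene brp ranged from 612 to 946 CPM on PEN1 plates and from 557 to 955 CPM on PEN2 plates. The shares of the 7 overlapped for every gene, with Rim at 47.4% ± 3.47 (SD, n = 6) in PEN1 and 43.0% ± 4.35 (n = 5) in PEN2. The Rim to brp ratio was 3.18 to 5.77 in PEN1 and 2.79 to 4.19 in PEN2.

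Other signs of what the wells held also moved with the plate type. Wells with at least 10 counts of the reporter were 241 of 380 in PEN1 and 106 of 362 in PEN2. ChAT ranged from 2245 to 3530 CPM on PEN1 plates and from 1564 to 2672 CPM on PEN2 plates, while Gad1, which should be low in cholinergic neurons, ranged from 0.900 to 118 CPM on PEN1 plates and from 25.9 to 454 CPM on PEN2 plates. Their part in the Rim difference was not tested. In wells with at least 10 reporter counts the Rim change was 0.31 (edgeR adjusted p = 0.999).

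In single wells, Rim was the most widely detected member. A count of Rim was found in 97.6% of PEN1 wells (exact Clopper-Pearson 95% interval 95.6% to 98.9%) and in 90.9% of PEN2 wells (87.4% to 93.6%). By plate the shares were 94.6% to 100.0% in PEN1 and 88.9% to 94.0% in PEN2 and did not overlap. With each well thinned to 10000 counts, which left 336 PEN1 and 323 PEN2 wells, they were 93.0% to 98.5% and 86.9% to 93.0%, where the lowest PEN1 plate and the highest PEN2 plate were nearly level. Fife was found in 209 of 380 PEN1 wells (interval 49.8% to 60.1%) and in 168 of 362 PEN2 wells (interval 41.2% to 51.7%). Thinned, the plates held 43.8% to 57.5% in PEN1 and 25.5% to 42.3% in PEN2, without overlap, while unthinned they held 49.3% to 60.0% in PEN1 and 34.0% to 56.8% in PEN2 and overlapped. Within PEN1, each member was found in a larger part of the wells with at least 10 reporter counts than of the others. For Fife it was 59.75% and 46.8%, and for Rim 99.6% and 94.2%, at medians of 59720 and 25040 counts a well. The part of reporter and depth in the differences between the types was not tested. Intervals treat wells as independent and cover counting error only.

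The other members did not separate the types in this measure. After thinning, unc-13 was found in 85.4% of PEN1 and 85.1% of PEN2 wells, brp in 62.2% and 63.5%, Rbp in 41.1% and 38.7%, Syd-1 in 25.0% and 26.9%, and Liprin-alpha in 6.55% and 6.81%. Without thinning, PEN1 and PEN2 wells gave 88.7% and 89.5% for unc-13, 70.0% and 71.8% for brp, 46.1% and 47.0% for Rbp, 30.8% and 37.9% for Syd-1, and 9.74% and 9.67% for Liprin-alpha. Wells with fewer than 500 genes, at a median of 3458 counts in PEN1 and 3025 in PEN2 against 46787 and 59965 in the kept wells, still held a count of Rim in 56.4% and 44.9% and of Fife in 15.1% and 6.12%. Single wells carried much of some sums: 1 well held 40.2% of the unc-13 counts of a PEN1 plate, and for Liprin-alpha the leading well of a plate held 32.1% to 99.1%.

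Genes that work with the scaffold were followed as 2 lists. Of 22 active zone partners (calcium channel subunits, Rab3 pathway, adhesion and transport proteins), the low-cell PEN2 over CB comparison called 5 higher and 1 lower of 21 tested, with a list median of 0.03. Of all genes tested 7.06% were higher and 11.3% lower there. Spinophilin (Spn), which limits Neurexin signalling at new sites, averaged 2106 ± 556 CPM in PEN2 and 632 ± 85.7 CPM in CB, a change of 1.60 (edgeR adjusted p = 1.48e-11). The calcium channel gene cac averaged 363 ± 121 CPM in PEN2 and 169 ± 34.2 CPM in CB, a change of 0.97 (edgeR adjusted p = 0.000226). The vesicle GTPase gene Rab3 averaged 253 ± 135 CPM in PEN2 and 459.6 ± 49.7 CPM in CB, a change of -1.01 (edgeR adjusted p = 0.000998).

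R4d over CB called 5 partners higher and 3 lower, where 10.9% of all genes were higher and 16.5% lower. Tomosyn, a protein that restrains SNARE assembly, averaged 2903 ± 462 CPM in R4d and 258 ± 122 CPM in CB, a change of 3.52 (edgeR adjusted p = 1.49e-13), and Spn changed by 2.50 (edgeR adjusted p = 3.15e-15). Rabphilin (Rph) and Rab3 were lower in R4d, by -2.03 (edgeR adjusted p = 8.48e-05) and -1.63 (edgeR adjusted p = 1.50e-05). PEN2 over R4d, with 11.3% of all genes higher and 11.9% lower, called 4 partners higher and 3 lower, led by Rph at 1.55 (edgeR adjusted p = 0.00111) and nwk at 0.84 (edgeR adjusted p = 0.0406), and by Tomosyn at -2.69 (edgeR adjusted p = 3.06e-13) and cac at -1.08 (edgeR adjusted p = 1.78e-05). Both brp and cac, whose channel the T-bar clusters, were thus higher in R4d than in PEN2 and higher in PEN2 than in CB. The plates called 0 partners, and 0.256% of all genes.

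In the bulk libraries the partner that stood out was Spn. It averaged 4.19 ± 2.99 FPKM in D7 (n = 4), 32.7 ± 10.4 for EPG (n = 4), 67.6 ± 9.54 for PEG and 37.6 ± 10.4 in PEN2, against 47.9 ± 1.25 in WB (n = 2 each). It was called lower in D7 than in EPG, at -2.78 (limma adjusted p = 0.00171), PEG, at -3.87 (limma adjusted p = 0.00114), PEN2, at -3.20 (limma adjusted p = 0.00358), and WB, at -2.33 (limma adjusted p = 0.00881). Without PEG replicate 1, Spn in D7 over PEG was -3.83 (limma adjusted p = 0.0115). D7 was thus the type with the highest mean Fife and the lowest mean Spn in FPKM. With TMM scaling over WB, 2 partners were higher in D7 (unc-104, the kinesin that carries synaptic vesicle precursors, and Rab3-GEF), 3 in PEG, 3 in PEN2 and 0 in EPG, where 1.76%, 1.01%, 1.45% and 1.53% of all genes were higher. Without PEG replicate 1 the 3 in PEG were 2, with unc-104 at 0.87 (limma adjusted p = 0.194). No partner but Spn was called between sorted bulk types.

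Of 14 vesicle fusion genes (SNAREs, synaptotagmins and their cofactors), PEN2 over CB called 1 higher and 8 lower, with a list median of -0.60, beside 7.06% of all genes higher and 11.3% lower. R4d over CB called 1 higher and 10 lower, with a median of -1.06, beside 10.9% and 16.5%. The vesicle SNARE gene nSyb was the higher one in both, at 0.38 in PEN2 (edgeR adjusted p = 0.0374) and 0.47 in R4d (edgeR adjusted p = 0.0148). Sytalpha was lower in both, at -2.98 in PEN2 (edgeR adjusted p = 0.00277) and -3.05 in R4d (edgeR adjusted p = 0.0129). Complexin (cpx) was lower in PEN2, at 994 ± 383 CPM against 4126 ± 259 CPM in CB, a change of -2.20 (edgeR adjusted p = 1.52e-14), and the membrane SNARE gene Snap25 was lower in R4d, at 306 ± 93.1 CPM against 2538 ± 269 CPM in CB, a change of -3.03 (edgeR adjusted p = 1.09e-16). PEN2 over R4d called 2 higher, Snap25 at 2.19 (edgeR adjusted p = 4.39e-14) and alphaSnap at 1.55 (edgeR adjusted p = 6.36e-11), and 1 lower, cpx at -1.40 (edgeR adjusted p = 1.91e-09). The plates called 0.

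In bulk with TMM scaling, 1 of the 14 was lower over WB in each of D7, PEG and PEN2, beside 8.53%, 5.15% and 6.25% of all genes. In EPG 1 was higher, beside 1.53%. D7 over EPG called 1 higher and 1 lower (1.54% and 1.95% of all genes), D7 over PEG 1 higher (0.947%), and D7 over PEN2 2 higher and 1 lower (1.47% and 2.82%). Over WB, cpx was lower in PEG, at -1.65 (limma adjusted p = 0.00984), and in PEN2, at -1.54 (limma adjusted p = 0.0138). It was higher in D7 than in PEG, at 1.61 (limma adjusted p = 0.0115), and PEN2, at 1.50 (limma adjusted p = 0.0135). Without PEG replicate 1 neither cpx call that involves PEG passed, at -1.31 over WB (limma adjusted p = 0.0689) and 1.28 for D7 over PEG (limma adjusted p = 0.096). The membrane SNARE gene Syx1A averaged 103 ± 65.3 FPKM in D7 and 402 ± 42.5 FPKM in PEN2, a change of -2.44 (limma adjusted p = 0.0246). Sytalpha was lower in D7 over WB, at -3.72 (limma adjusted p = 0.00597), and the proton pump subunit gene Vha100-1 was higher in EPG over WB, at 1.32 (limma adjusted p = 0.0262).

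Across the 12 sorted bulk libraries, the likeness of other genes to each member was measured over 3347 genes. The measure was the root mean square difference of centred log2(TMM-scaled FPKM + 1) values. The gene nearest to brp was its fellow member unc-13, at 0.209, followed by lola at 0.210, where the median over all genes was 1.10. Nearest to unc-13 were cac at 0.200 and lola at 0.204. Nearest to Rim were CG4467 at 0.193 and dtn at 0.213, to Rbp Nckx30C at 0.248 and unc80 at 0.300, and to Fife Msp300 at 0.305 and Pal2 at 0.306. Nearest to Syd-1 were eIF4G1 at 0.287 and jef at 0.320, and to Liprin-alpha CG14200 at 0.414 and CG9775 at 0.432. A gene that did not vary would lie about as far from a member as that member's own SD. These SDs were 0.42 for brp, 0.57 for Rim, 0.51 for Rbp and 0.33 for unc-13. For Fife, Syd-1 and Liprin-alpha they were 0.57, 0.42 and 0.77. The 12 libraries share types and scaling, and the measure is a description without a test.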

How the data were processed

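The authors deposited a bulk table, low-cell tables and plate tables of 17713 features, among them 92 spike-ins. The bulk values are FPKM as deposited, a unit inferred from the values because the file headers do not name it. The low-cell and plate values are counts that the authors deposited without normalization, and whether they are UMIs is not stated. The authors' deposited comparison tables hold log2 fold changes of brain RNA over the sorted type, per the file headers, with p-values and FDR. The submitters' processing notes name STARsolo and edgeR without versions. Build and annotation are not given in the sources used here.

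Bulk FPKM were tested with limma 3.58.1 (trend) on log2(TMM-scaled FPKM + 1), all 14 libraries in 1 fit, for genes with at least 1 FPKM in at least 2 libraries. This scale understates changes of low genes. Counts were tested with edgeR 4.0.16 (TMM, filterByExpr, quasi-likelihood) in R 4.3.3, all groups of a protocol in 1 fit. Plate counts were summed over wells with at least 500 genes, leaving out 4 control wells a plate, whose positions were inferred here. Benjamini-Hochberg adjustment ran over all genes tested, and an adjusted p under 0.05 was called. CPM are per library total. Shares and ratios of members are given without a test. The scripts were tested on simulated data.

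The members and the lists of genes were chosen with earlier results of these data known. Named are the 7 members in all comparisons and up to 2 called list genes a direction in each low-cell comparison. Of the list genes called in bulk only some are named. Also named are the 2 genes nearest to each member among those with a mean of at least 5 FPKM. The deposited files hold 7 R4d libraries, where the series text names another number, and 1 D7 column and 1 D7 title differ from the driver in the sample characteristics, which were followed. The R4d totals are above those of the other low-cell groups, so Liprin-alpha and Syd-1 are measured more precisely there. The bulk depth is unknown. Alternatives were other scalings, pseudocounts, filters, library weights, DESeq2 1.42.0, thinned counts and leaving out each library.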

Additional observations from a re-analysis of the deposited data

Results flagged for a closer look

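In the 7 low-cell R4d libraries, unc-13 was far higher in replicate 1, at 1390 CPM, than in the others, which lay between 853 and 958 CPM. It was the 1 library standing far from its group among 42 groups of members tested, where chance marks about 1 in 20. The same library had the highest R4d values of brp and Syd-1.

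On deposited values, PEN2 set against brain RNA gave brp opposite signs in the 2 protocols: the log2 ratio of means was -0.95 in bulk (deposited FPKM, both PEN2 libraries below both WB libraries) and 1.46 in the low-cell libraries (CPM, all 14 above all 8 CB libraries). With TMM scaling the bulk change was 0.33 ± 0.33 (limma adjusted p = 0.676), with the sign of the low-cell libraries. It was 1.01 with upper-quartile scaling, -0.94 without scaling and -0.16 rescaled without abundant genes, so the sign of brp in bulk depends on the scaling. The difference between protocols was not tested. The controls differ, whole brain with the optic lobes against central brain without them, and the units differ.

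Wells with fewer than 500 genes, which entered no comparison, held a count of at least 1 of the 7 genes in 134 of 172 PEN1 wells (77.9%) and 75 of 98 PEN2 wells (76.5%). Had none of these wells held a count, the number of wells alone would allow a share up to 1.74% and 3.06%. That bound is not a rate of false counts.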

How the results depend on the processing

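Of 2534 changes of single members under alternatives, 92 lost a call, 16 gained one and 15 turned round. The other 2411 include 70 sign changes of uncalled values within 1 SE of 0. The low-cell calls of Rim, brp and Fife held in every alternative run. The changes over WB did not: without scaling, Rbp in D7 became -0.65, Syd-1 and Rbp in EPG -0.25 and -0.12, Syd-1, Rim, brp and Fife in PEG -0.34, -0.48, -0.63 and -0.71, and unc-13, Syd-1 and Fife in PEN2 -1.03, -0.84 and -0.06. Values within 1 SE of 0 also changed sign: Rim and Syd-1 in D7 became -1.06 and -0.87, Rbp and unc-13 in PEG -0.76 and -0.93, and brp and Liprin-alpha in PEN2 -0.94 and -1.01, so 16 of 28 changes over WB did. Rescaled without abundant genes, brp and Fife in PEG became -0.10 and -0.18, and unc-13 and Syd-1 in PEN2 -0.24 and -0.08. With upper-quartile scaling, Syd-1 in EPG over PEN2 became -0.09.

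The number of members called moved as follows. With library weights it was 2 for D7 over WB, 3 for EPG over WB and 0 for D7 over PEN2, EPG over PEG and EPG over PEN2. Of the 9500 genes tested, 2269, 2109, 223, 153 and 109 were called in that order. The main fits called 977, 907, 408, 216 and 245. Without scaling the number of members was 2 for D7 over WB and 0 for PEN2 over WB, D7 over PEN2, EPG over PEG and EPG over PEN2. There 1859, 1459, 281, 188 and 178 of the 9500 genes were called in that order. For PEN2 over WB the main fit called 732. With only the groups compared the number of members was 2 for D7 and EPG over WB and 0 for D7 over PEN2, EPG over PEG and EPG over PEN2. Of all genes, 1714 of 8700, 1717 of 8454, 169 of 6461, 93 of 6463 and 85 of 6215 were called in that order. Rescaled without abundant genes the number of members was 0 for PEN2 over WB, D7 over PEN2 and EPG over PEN2. There 804, 349 and 204 of the 9500 genes were called. With upper-quartile scaling the number of members was 3 for D7 over PEN2, 0 for EPG over PEG and 1 for PEG over PEN2. There 597, 181 and 221 of the 9500 genes were called, and for PEG over PEN2 the main fit called 151. DESeq2 called 1 member on the plates and 56 of 2367 genes, where edgeR called 16 of 6249 genes. The cause of these moves was not tested.

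Replicate numbers of the bulk labels did not pair the libraries. The difference of replicate 1 from replicate 2 was taken within each of 7 groups, the driver lines and WB. Its 21 correlations between groups, over genes, were between -0.04 and 0.03. With the replicate block, EPG over PEG called 0 members (Fife, limma adjusted p = 0.0569) and 186 of the 9500 genes. No other count of members changed.

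Leaving out 1 library in turn gave 0 to 1 members called for D7 over WB and EPG over WB, 0 to 3 for PEN2 over WB, 0 to 2 for D7 over PEN2, 0 to 1 for EPG over PEG, EPG over PEN2 and PEG over PEN2, and 1 in every fit for D7 over PEG. It gave 0 in every fit for PEG over WB, D7 over EPG and the plates, and 3 to 4 in each low-cell comparison. Of all genes called over WB, the part that was higher with TMM was 17.1% for D7, 15.99% for EPG, 16.4% for PEG and 18.9% for PEN2. Without scaling it was 3.34%, 3.16%, 3.68% and 2.47%, and for PEN2 it was 37.3% with upper-quartile scaling and 7.71% rescaled. Between sorted types it was 34.3% for D7 over PEN2, 35.9% for EPG over PEN2 and 54.3% for PEG over PEN2, against 18.3%, 21.5% and 33.5% with upper-quartile scaling. Rescaled, EPG over PEN2 had 49.0%, and D7 over PEG had 42.2%, against 28.4% with TMM. The low-cell medians of all genes were -0.02 for PEN2 over CB and 0.08 for PEN2 over R4d without scaling. The bulk calls rest on 2 libraries each of PEG, PEN2 and WB, Syd-1 and Liprin-alpha fall to 4 and 0 counts in single low-cell libraries, and the bulk depth is unknown.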

Other observations

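How many of the 7 scaffold genes a single well showed ran from none to all. Of the 380 PEN1 wells, 96 showed 3 members, 119 showed 4 and 74 showed 5. Of the 362 PEN2 wells, 81 showed 3, 85 showed 4 and 91 showed 5. All 7 were found in 5 PEN1 and 6 PEN2 wells, and none in 0 PEN1 and 4 PEN2 wells. Depth moved with this number: wells with 1 member had a median of 3739 counts in PEN1 and 5668 in PEN2, and wells with all 7 had 120000 and 87890. In wells where a gene was found, the median count was 154 for Rim, 80 for unc-13, 38 for Fife and 37 for brp in PEN1, and 105, 89.5, 30 and 55.5 in PEN2.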
